A study of Mus musculus with 14 samples.

Results

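Bax, Bbc3, Pmaip1, Aen, Phlda3, Eda2r, Fas, Perp, Pidd1 and Apaf1 are targets of the transcription factor p53 that act in cell death. These 10 genes were taken by symbol from the liver count table and joined to the fibroblast table by Ensembl ID, out of 54532 genes in both tables. All 10 were found once and all 10 were tested in both tissues. The study deleted Terf2, which encodes the telomere protein TRF2, and sequenced RNA from 14 libraries in all. Control iMEFs (n = 3) and senescent iMEFs (n = 3) were embryonic mouse fibroblasts that SV40 large T antigen made immortal, of genotype Trf2F/F;Rosa-CreER. Controls received vehicle, and senescent cells received 4-hydroxytamoxifen (4HT) and were collected on day 7. Both groups carry the floxed alleles and CreER, so an effect of the drug or of active Cre and one of the deletion cannot be told apart. Control livers (n = 4) came from Rosa-mTmG mice and senescent livers (n = 4) from Trf2F/F;Rosa-mTmG mice, with the mTmG reporter homozygous in both and all strains on a C57BL/6J background. The senescent livers were taken 6 weeks after virus by their labels, and another description of the livers gives 6 to 7 weeks. For the animals of both groups the study states collection 6 weeks after virus. All of these mice were given AAV8-Tbg-Cre, whose promoter is active in hepatocytes, so the other cells of the whole liver were not targeted. The study calls the replicates biological, the fibroblasts came from embryos, and the age of the liver mice was not given in the sources used here.

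When telomeres lose TRF2, their ends are read as broken DNA, and the damage kinases stabilize p53. Among its targets, BAX opens the outer mitochondrial membrane, while PUMA (Bbc3) and NOXA (Pmaip1) are BH3-only proteins that neutralize survival members of the BCL2 family. APAF1 builds the apoptosome from released cytochrome c, PIDD1 builds the caspase-activating PIDDosome, and FAS and EDA2R are receptors of the TNF receptor family at the cell surface. SV40 large T is known to bind p53, and senescent cells are known for resisting apoptosis although p53 is active.

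Promoter windows of the members were searched for the p53 half-site consensus, a palindromic motif of 10 bases that reads the same on both strands. Windows of 300 bases, from 250 before to 50 after the start, came from RefSeq on build GRCm38.p6 and were present for 8 of the 10 members (11 windows), without Pmaip1 and Perp. An exact half-site stood in the windows of Bax and Aen, 2 of 8 members. Of all 27025 genes with a window, 9.55% held one. Both sequences are shown because they carry the exact match, in capitals, read 5′ to 3′ along the gene. The Bax window is chr7:45466849-45467148 on the minus strand, and its half-site begins at position -201 from the start. The Aen window is chr7:78895677-78895976 on the plus strand, and its half-site begins at base 11 of the transcript. A second Aen window, from 78895808 to 78896107, holds the same half-site at -121 from its own start.
Bax: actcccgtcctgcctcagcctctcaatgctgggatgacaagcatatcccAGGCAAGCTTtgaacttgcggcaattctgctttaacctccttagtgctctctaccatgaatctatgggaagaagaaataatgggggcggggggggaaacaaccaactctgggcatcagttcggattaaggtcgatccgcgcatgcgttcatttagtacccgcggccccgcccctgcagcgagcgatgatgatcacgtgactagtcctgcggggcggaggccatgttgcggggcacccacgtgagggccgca
Aen: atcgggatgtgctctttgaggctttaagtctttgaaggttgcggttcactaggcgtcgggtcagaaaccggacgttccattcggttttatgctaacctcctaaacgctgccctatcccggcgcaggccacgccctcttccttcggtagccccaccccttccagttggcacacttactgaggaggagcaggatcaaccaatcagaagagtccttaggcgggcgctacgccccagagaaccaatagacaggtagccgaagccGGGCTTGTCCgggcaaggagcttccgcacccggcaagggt

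With 1 mismatch allowed outside the central C and G, 5 of 8 members (Aen, Bax, Bbc3, Eda2r and Pidd1) held a half-site, where 54.2% of all genes did. No member window held a pair of such half-sites 0 to 13 bases apart, as 3.09% of all genes did. Phlda3, Fas and Apaf1 had no match in their windows. These matches describe letters in short windows and not bound sites, and p53 elements can lie in introns or farther away. Of the 10 members, 4 (Bax, Bbc3, Aen and Pidd1) lie on chromosome 7, which holds 8.64% of the genes in the tables.

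Between 15364450 and 20177401 reads per library fell in genes. CPM values are read counts relative to library size after TMM scaling, and each tissue was normalized on its own. Terf2 was 37.7, 39.2 and 38.0 CPM in control iMEFs and 0.215, 0.305 and 0.229 CPM in senescent iMEFs (log2 fold change -7.23, adjusted p = 1.5e-10). In livers Terf2 was 11.3, 13.8, 13.8 and 11.6 CPM in controls and 4.91, 2.84, 2.87 and 4.67 CPM in senescent livers, a log2 fold change of -1.72 (SE 0.20, adjusted p = 0.0022). The residual Terf2 reads of livers cannot be divided between hepatocytes and other cells, and in bulk RNA fewer cells of a type and less RNA per cell cannot be told apart. Senescent iMEF replicate 3 stood apart with 2.32% of reads from the mitochondrial genome, against 0.599% to 0.853% in the other 5 iMEF libraries. The 5 hepatocyte markers gave at most 1 read in iMEFs and summed to between 76660 and 104600 CPM in livers. Of the other cell types, 0 of 7 leukocyte markers tested passed in livers by edgeR, DESeq2 or limma-voom (1 at an unadjusted p under 0.05). Summed leukocyte markers ranged from 139 to 298 CPM in control livers and from 237 to 308 CPM in senescent livers. Summed over 5 stellate cell markers, levels ranged from 292.5 to 353 CPM in control livers and from 348 to 399 CPM in senescent livers. Of these markers, Dcn had 158 ± 14.8 CPM in control livers and 201 ± 9.74 CPM in senescent ones (SD, n = 4). Dcn passed by DESeq2 but not by edgeR (adjusted p = 0.23). Lrat, Reln, Rgs5 and Des had log2 fold changes of 0.39, 0.16, 0.12 and -0.06 in livers, without passing by edgeR. The erythroid genes Hba-a1 and Hbb-bs went from 43.8 ± 9.77 to 67.9 ± 22.2 CPM and from 70.7 ± 19.1 to 111 ± 36.8 CPM without passing (adjusted p = 0.54 and 0.55). Summed endothelial markers ranged from 183 to 208 CPM in control livers and from 195.5 to 247 CPM in senescent livers. Cholangiocyte markers summed to 56.6 to 112.5 CPM and 79.6 to 135 CPM. Among these, Krt19 had a log2 fold change of -1.24 (SE 0.62) and Spp1 of 0.54 (SE 0.23). In both lists 0 of 5 markers passed in livers by edgeR. The part of these cell types in the results was not tested. All 6 fibroblast markers were present in iMEFs, where their sum was 14470 to 15370 CPM in controls and 5864 to 6878 CPM in senescent cells. Col1a1 and Col1a2 weigh most in this sum, with means of 6765 and 4694 CPM in controls and 1685 and 1130 CPM in senescent cells. By edgeR 5 of the 6 fell, while Vim went from 2827 ± 141 to 3237 ± 110 CPM (SD, n = 3) without passing (adjusted p = 0.14). Of the 6 markers, 5 passed as lower and 1 as higher by DESeq2, and 5 as lower and 0 as higher by limma-voom.

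In senescent iMEFs 6 of the 10 members rose (Eda2r, Pidd1, Pmaip1, Perp, Aen and Phlda3), where 18.6% of the 13561 genes tested rose and 21.2% fell. In senescent livers 5 of the 10 rose (Phlda3, Eda2r, Aen, Apaf1 and Bax), where 0.308% of the 14270 genes tested rose and 0.035% fell. The call of Apaf1 in livers is the least firm of these, as described with its values. By edgeR, 0 members fell in either tissue, as by DESeq2, limma-voom and at an unadjusted p under 0.05. The median log2 fold change of the members was 0.93 in iMEFs and 0.68 in livers, and that of all genes was 0.0028 and -0.0040. Aen, Phlda3 and Eda2r rose in both tissues, while Bbc3 and Fas passed the test in neither. The change itself differed between the tissues for 7 of the 10 members, where 17.1% of the 11693 genes tested in both differed.

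**Figure D1:**
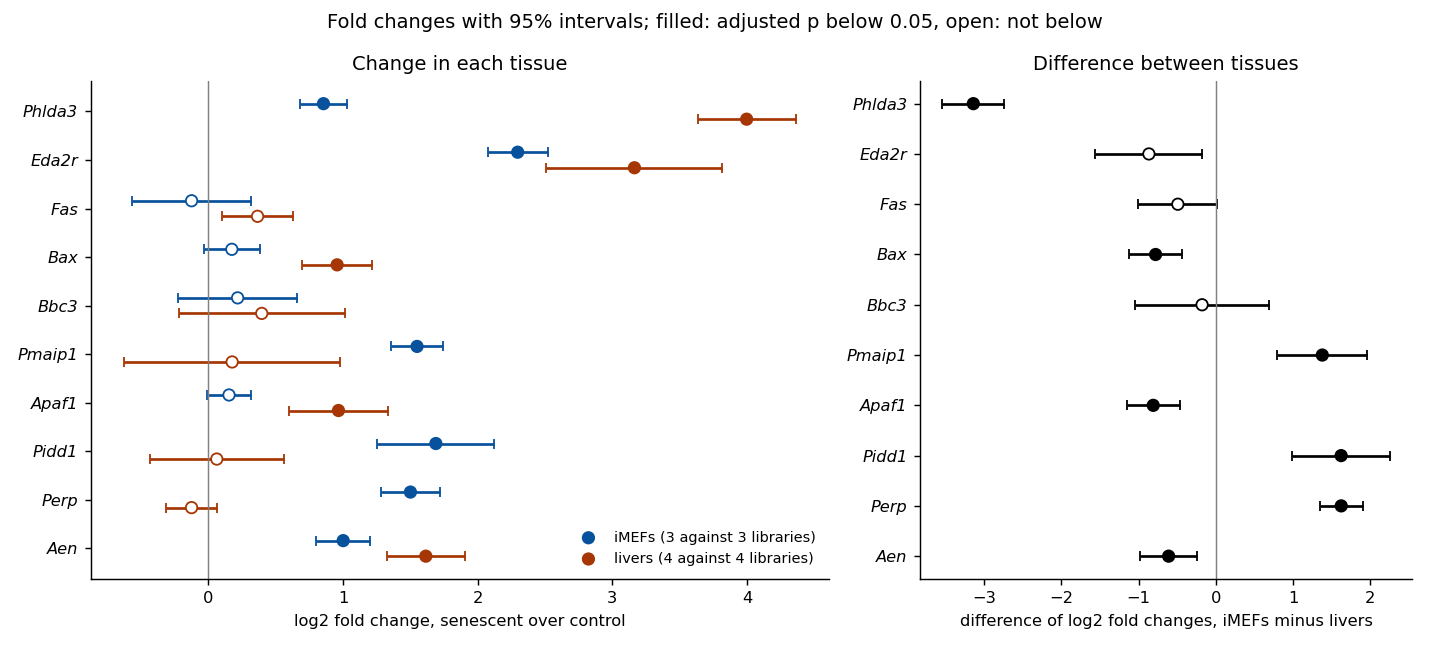
Left, log2 fold change of senescent over control for each member with its 95% interval, in iMEFs (blue, 3 against 3 libraries) and livers (brown, 4 against 4). Right, the difference of the 2 fold changes, iMEFs minus livers; filled points have an adjusted p below 0.05. Phlda3 lies at 0.86 in iMEFs and 4.00 in livers, and Perp, Pidd1 and Pmaip1 lie above 1 in iMEFs and near 0 in livers.

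Phlda3 encodes a small pleckstrin-homology protein that competes with AKT for membrane lipids and so restrains a survival signal. The gene lies at chr1:135766119-135769136 on the plus strand (GRCm38). In control livers it was 2.12, 1.94, 1.52 and 2.11 CPM, and in senescent livers 31.5, 36.0, 32.0 and 24.0 CPM. Every senescent liver lay far above every control. This 16.0-fold rise (95% interval 12.4 to 20.6) had a log2 fold change of 4.00 (SE 0.17, adjusted p = 3.3e-07), first of 14270 genes by p and rank 5 by size. In iMEFs Phlda3 was 55.0, 52.9 and 49.6 CPM in controls and 94.9, 94.8 and 95.04 CPM in senescent cells. The groups did not overlap, and the senescent cultures were nearly equal. The log2 fold change was 0.86 (SE 0.08, adjusted p = 5.3e-06), and the difference of the fold changes, iMEFs minus livers, was -3.14 (SE 0.19, adjusted p = 2.0e-08). Control livers started far below control iMEFs in CPM, a comparison across tables that were normalized separately.

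Eda2r encodes the receptor for the A2 isoform of ectodysplasin, of the TNF receptor family, and lies at chrX:97333840-97377216 on the minus strand. It showed the largest rise of the members in iMEFs, from 11.6, 11.3 and 13.6 CPM to 59.1, 57.6 and 62.9 CPM. It had a log2 fold change of 2.30 (SE 0.10, adjusted p = 1.2e-08), a 4.92-fold rise. In livers it went from 1.62, 1.47, 0.730 and 1.55 CPM to 15.4, 11.6, 14.5 and 7.07 CPM. All senescent livers lay above all controls, although senescent replicate 4 was below the other 3. Here the log2 fold change was 3.16 (SE 0.30, adjusted p = 0.00037), an 8.97-fold rise (95% interval 5.70 to 14.1). The difference between tissues was -0.87 (SE 0.33) and did not pass (adjusted p = 0.080). It passed by DESeq2 (adjusted p = 0.041) and without senescent liver replicate 4 (adjusted p = 0.0097). Eda, which encodes ectodysplasin, had a mean of 9.18 ± 0.636 CPM in control iMEFs and 10.4 ± 1.79 CPM after 4HT (SD, n = 3). In livers Eda was 2.55 ± 0.458 and 1.63 ± 0.430 CPM (SD, n = 4), and neither comparison passed.

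Fas encodes the death receptor that recruits FADD and initiator caspases when bound by its ligand. In iMEFs it was 7.73, 10.3 and 10.4 CPM in controls and 7.68, 6.64 and 11.8 CPM in senescent cells, with overlapping groups (log2 fold change -0.12, SE 0.20, adjusted p = 0.66). Liver levels of Fas were 22.9, 21.3, 25.2 and 20.7 CPM in controls and 32.8, 32.6, 25.5 and 25.1 CPM in senescent livers. Only the highest control, replicate 3, lay within the senescent range. For Fas in livers the log2 fold change of 0.37 (SE 0.12) had a 95% interval of 0.10 to 0.63 but an adjusted p of 0.48. The tissues' difference was -0.49 (adjusted p = 0.18), and it passed without senescent iMEF replicate 3 (-0.76, adjusted p = 0.030). Fasl, which encodes the ligand, was too low to be tested in both tissues.

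Bax, the pore-forming effector of the mitochondrial route, differed between the tissues. In livers it was 13.7, 15.8, 12.6 and 12.3 CPM in controls and 25.4, 30.5, 25.3 and 24.3 CPM in senescent livers, with no overlap. Bax had a log2 fold change of 0.96 (SE 0.12, adjusted p = 0.0027), a 1.94-fold rise (95% interval 1.62 to 2.32). In iMEFs Bax was 69.0, 74.1 and 58.5 CPM in controls and 79.0, 74.2 and 74.4 CPM in senescent cells. The groups came within 0.1 CPM of each other, and the log2 fold change of 0.17 (SE 0.10, 95% interval -0.03 to 0.38) did not pass (adjusted p = 0.17). The difference of -0.78 (SE 0.16) passed (adjusted p = 0.0032). Of the exon bases of Bax, 192 (12.2%) are shared with Gm45808 on the same strand, so reads there could be counted for either gene or dropped.

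Bbc3, which encodes PUMA, was 16.2, 12.8 and 8.81 CPM in control iMEFs and 14.2, 11.8 and 17.8 CPM in senescent iMEFs, with overlapping groups (log2 fold change 0.22, SE 0.20, adjusted p = 0.42). Liver levels were 15.8, 10.7, 16.6 and 31.6 CPM in controls and 16.2, 27.6, 28.7 and 26.1 CPM in senescent livers. Control replicate 4 was above all senescent livers, and senescent replicate 1 lay among the other controls. The log2 fold change was 0.40 (SE 0.28, 95% interval -0.22 to 1.01, adjusted p = 0.80), and without control liver replicate 4 it was 0.78 (adjusted p = 0.25). A change of up to 2.02-fold lay within this interval.

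Pmaip1, which encodes NOXA, rose in iMEFs from 27.2, 24.2 and 24.9 CPM to 70.3, 78.3 and 74.6 CPM. These groups lay far apart, with a log2 fold change of 1.55 (SE 0.09, adjusted p = 9.6e-08). In livers it was close to the limit of detection, with 55 reads over the 4 control libraries and 57 over the 4 senescent ones. Its levels there were 0.892, 0.880, 0.669 and 0.721 CPM in controls and 0.752, 1.12, 1.15 and 0.568 CPM in senescent livers. Its log2 fold change of 0.18 had a 95% interval of -0.62 to 0.98, so changes from 0.65-fold to 1.97-fold lay within it. The difference between the tissues was 1.38 (SE 0.28, adjusted p = 0.0026).

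**Figure D2:**
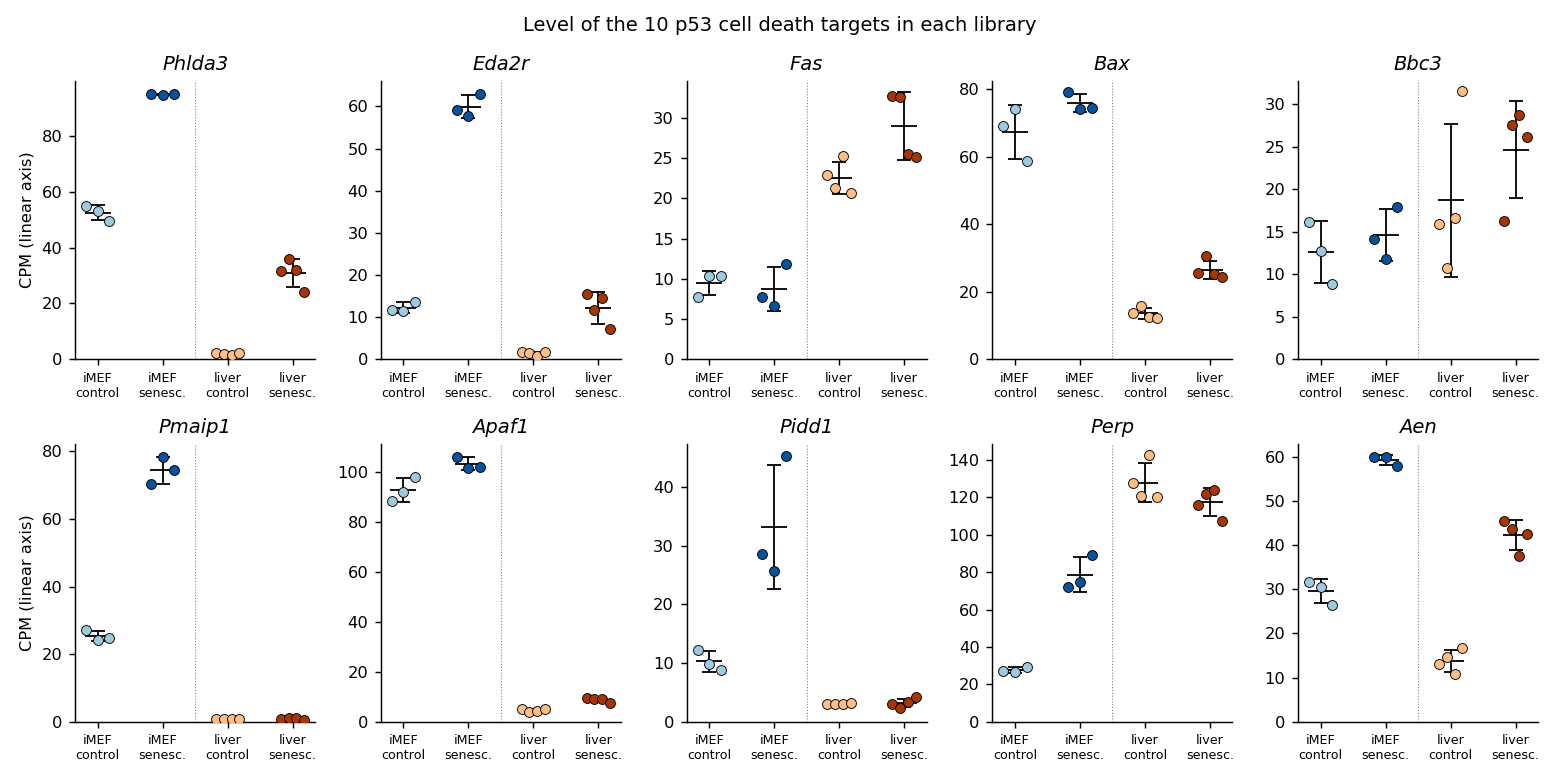
CPM of each member in every library on a linear axis from 0, by group; points are libraries, the bar is the mean and the whiskers the SD (n = 3 in iMEFs, n = 4 in livers). Phlda3 in livers moves from about 2 to between 24.0 and 36.0 CPM, Pmaip1 stays near 1 CPM in all 8 livers, and Bbc3 has 1 control liver at 31.6 CPM.

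Apaf1, the scaffold of the apoptosome, was 88.2, 91.9 and 97.9 CPM in control iMEFs and 106, 102 and 102 CPM in senescent iMEFs. The log2 fold change of 0.15 (SE 0.08, 95% interval -0.01 to 0.32) did not pass (adjusted p = 0.13) although the groups did not overlap. In livers it was 5.07, 3.75, 4.14 and 4.94 CPM in controls and 9.48, 9.19, 9.05 and 7.32 CPM in senescent livers, again without overlap. Apaf1 had a log2 fold change of 0.97 there (SE 0.17, adjusted p = 0.034). This call was lost with the replicate number as a block (adjusted p = 0.095). It was also lost on leaving out any 1 liver library except senescent replicate 4 (adjusted p from 0.040 to 0.14 over the 8 omissions), while the fold change stayed between 0.90 and 1.04. The difference between tissues, -0.81 (SE 0.16), passed (adjusted p = 0.0026).

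Pidd1, the death-domain scaffold of the PIDDosome, showed the reverse order. In iMEFs it went from 12.3, 9.84 and 8.76 CPM to 28.6, 25.6 and 45.3 CPM. Senescent replicate 3, the library with the high mitochondrial share, was well above the other 2. The log2 fold change was 1.69 (SE 0.20, adjusted p = 3.7e-05), and without that library it was 1.41 (adjusted p = 1.8e-07). In livers Pidd1 was 3.07, 2.99, 3.04 and 3.16 CPM in controls and 2.95, 2.38, 3.31 and 4.17 CPM in senescent livers. The senescent range enclosed the control range, with a log2 fold change of 0.06 (95% interval -0.44 to 0.56, adjusted p = 0.97). The difference between tissues was 1.62 (SE 0.30, adjusted p = 0.0014).

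Perp encodes a tetraspan membrane protein of desmosomes that also takes part in p53-driven death, and the gene lies at chr10:18845020-18857073 on the plus strand. In iMEFs it rose from 27.3, 26.6 and 29.5 CPM to 72.1, 74.7 and 89.2 CPM, a log2 fold change of 1.5 (SE 0.10, adjusted p = 3.3e-07). Liver levels were already high, at 128, 121, 143 and 120 CPM in controls and 116, 122, 124 and 107 CPM in senescent livers. The liver groups overlapped, and the log2 fold change of -0.12 had a narrow 95% interval of -0.32 to 0.07 (adjusted p = 0.80). The difference of 1.62 (SE 0.13, adjusted p = 4.8e-07) was the largest of the positive differences among the members, together with that of Pidd1.

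Aen encodes an exonuclease that degrades DNA in apoptosis. In iMEFs it rose from 31.8, 30.6 and 26.4 CPM to 60.0, 60.0 and 57.9 CPM, a 2.0-fold change (log2 fold change 1.0, SE 0.09, adjusted p = 4.4e-06). In livers it rose from 13.1, 14.7, 10.7 and 16.6 CPM to 45.5, 43.8, 37.5 and 42.5 CPM. This was a 3.06-fold change (95% interval 2.51 to 3.75, adjusted p = 0.00012). Neither tissue's groups overlapped. The difference of -0.61 (SE 0.18) passed (adjusted p = 0.024), but not without control iMEF replicate 1 (adjusted p = 0.070), control iMEF replicate 2 (0.066) or senescent iMEF replicate 3 (0.051).

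Per kilobase of exon, the members stood in a different order in each tissue. In control iMEFs Bax was highest, at 42.7 ± 5.04 CPM per kb (SD, n = 3), ahead of Phlda3 at 33.7 ± 1.74, and Eda2r was lowest at 2.07 ± 0.216. In senescent iMEFs Phlda3 stood first at 60.9 ± 0.0616 CPM per kb, ahead of Bax at 48.2 ± 1.72, and the ranges of these 2 genes did not overlap in either group. Perp (40.3 ± 4.72) and Pmaip1 (27.2 ± 1.47) followed in senescent iMEFs. Aen, Eda2r, Pidd1, Bbc3 and Fas came last there, and each overlapped its neighbour in this order.

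In control livers Perp alone held 66.1% of the summed level of the 10 members, at 65.6 ± 5.41 CPM per kb (SD, n = 4). Fas (10.9 ± 0.984), Bbc3 (8.79 ± 4.24) and Bax (8.62 ± 1.02) came next, each overlapping its neighbour in the order. Eda2r was lowest at 0.228 ± 0.0700 CPM per kb, overlapping Pmaip1 at 0.289 ± 0.0411. In senescent livers Phlda3 moved from rank 6 to rank 2, at 19.8 ± 3.21 CPM per kb, overlapping Bax at 16.7 ± 1.78. Perp remained first with 45.0% of the sum. The sum over the 10 members was 130 ± 7.02 CPM per kb in control and 227 ± 9.10 in senescent iMEFs, and 99.2 ± 5.27 in control and 134 ± 10.3 in senescent livers.

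**Figure D3:**
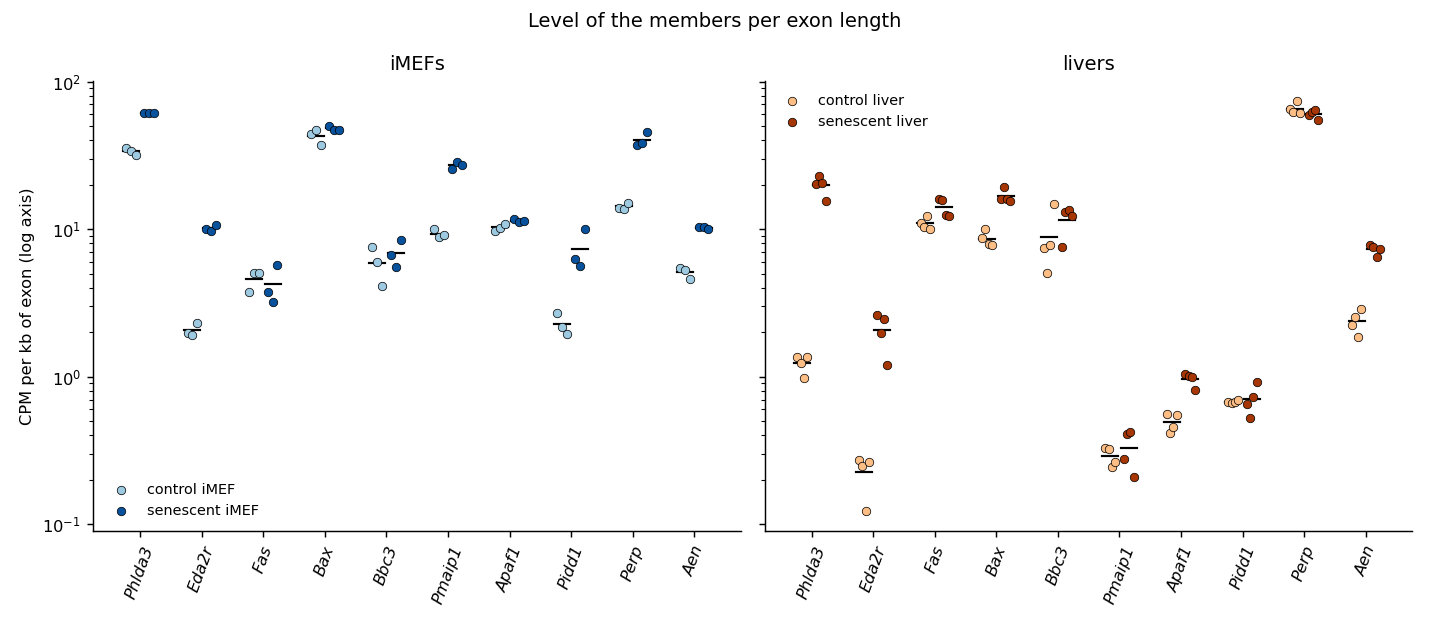
CPM per kilobase of exon of each member in every library, on a log axis, for iMEFs (left) and livers (right); points are libraries and bars are group means. Bax and Phlda3 lead in control iMEFs (42.7 and 33.7), and Perp leads in both liver groups (65.6 and 60.2).

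Averaged over the 10 members, log2 CPM above the mean of the controls of the same tissue was 0.88, 0.82 and 1.07 in senescent iMEF replicates 1, 2 and 3. In senescent liver replicates 1 to 4 this average was 1.14, 1.23, 1.22 and 0.96. Senescent liver replicate 4 held the lowest level of its group for Phlda3, Eda2r, Bax, Apaf1, Perp, Fas and Pmaip1, but the highest for Pidd1. Control libraries lay between -0.15 and 0.13. Across the 14 libraries, which form control and senescent clusters, the genes closest to this average outside the list were Gm37795 (Pearson r = 0.98), Ddit4l (0.97), Exoc4 (0.97), Zmat3 (0.97) and 1700007K13Rik (0.97). These were the highest of the 11693 genes tested in both tissues. Ddit4l had log2 fold changes of 1.57 in iMEFs and 2.18 in livers, and Exoc4, a subunit of the exocyst, of 0.68 and 1.05.

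Among p53 and its regulators 4 of 14 tested genes rose in iMEFs and 2 fell, where 18.6% and 21.2% of all genes did. Their median log2 fold change was -0.05. Mdm2, the ubiquitin ligase that p53 induces against itself, rose by 1.69 (SE 0.09) and Trp53 by 0.29 (SE 0.08) on the log2 scale. Trp63, a relative of p53, fell by 3.46 (SE 0.30) and Cdkn2a, which encodes p16 and ARF, fell by 0.96 (SE 0.10) on the log2 scale. In livers only Mdm2 of 12 tested genes rose (0.86, SE 0.10, adjusted p = 0.0015), and 0 fell by edgeR, DESeq2, limma-voom or at an unadjusted p under 0.05. Of all genes tested in livers, 0.308% rose and 0.035% fell. Trp53 had 27.1 ± 2.71 CPM in control livers and 23.6 ± 2.54 CPM in senescent ones (SD, n = 4, adjusted p = 0.72).

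Of 14 other p53 targets linked to cell death, 9 rose and 2 fell in iMEFs (median log2 fold change 0.40), where 18.6% and 21.2% of all genes did. Trp53inp1, which encodes a stress protein of the nucleus and of autophagy, rose by 1.54 (SE 0.09) and Zmat3, an RNA-binding zinc finger protein, by 1.12 (SE 0.09). Dram1, a lysosomal protein of autophagy, fell by 0.55 (SE 0.10) and Trp53i13 fell by 0.57 (SE 0.16). In livers 2 of the 14 rose by edgeR, Zmat3 by 1.54 (SE 0.17) and Rps27l by 0.57 (SE 0.10), where 0.308% of all genes rose. Of the 14, 0 fell by any of the 3 tools or at an unadjusted p under 0.05. The number that rose was 4 by DESeq2, 3 by limma-voom and 6 at an unadjusted p under 0.05. Trp53inp1 went from 131 ± 43.6 to 273 ± 71.9 CPM there without passing (adjusted p = 0.12).

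The arrest and feedback targets showed a median log2 fold change of 0.68 in iMEFs and 0.86 in livers. In iMEFs 8 of 14 rose and 1 fell, where 18.6% and 21.2% of all genes did. The cell cycle inhibitor Cdkn1a rose by 2.15 (SE 0.09) and Ccng1 by 2.12 (SE 0.08), and Sesn1 fell by 0.52 (SE 0.09). In livers 7 of 13 rose, where 0.308% of all genes did, including Cdkn1a at 2.44 (SE 0.42), Plk2 at 1.66 (SE 0.17) and Gtse1 at 2.31 (SE 0.33). Mdm2, among those that rose in both tissues, is also counted above with p53 and its regulators. Plk2 was 244 ± 12.1 and 223 ± 11.7 CPM in control and senescent iMEFs (SD, n = 3), and its difference between the tissues, -1.78 (SE 0.20), passed (adjusted p = 1.4e-05).

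Within the BCL2 family outside the members, 2 of 10 tested genes rose in iMEFs and 4 fell, where 18.6% and 21.2% of all genes did. The survival genes Bcl2 (0.51, SE 0.13) and Bcl2l1 (0.53, SE 0.10), which encodes BCL-XL, were the ones that rose. Those that fell encode death-promoting proteins, the effector Bak1 (-0.64, SE 0.10) and the BH3-only genes Bmf (-2.55, SE 0.17), Bcl2l11 (-0.55, SE 0.10) and Bad (-0.40, SE 0.10). Not passing were the survival genes Mcl1 (-0.0049, SE 0.08) and Bcl2l2 (0.12, SE 0.17) and the death-promoting genes Bid (0.06, SE 0.11) and Bok (-0.25, SE 0.12). In livers 0 of 11 tested genes passed by edgeR, DESeq2 or limma-voom (2 at an unadjusted p under 0.05 by edgeR). The smallest p there belonged to Bik, a BH3-only gene, at 4.21 ± 0.467 CPM in controls and 2.54 ± 0.365 CPM in senescent livers (SD, n = 4, adjusted p = 0.38).

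Among the other genes of the apoptosome and the caspases, 3 of the 13 reported here rose in iMEFs and 3 fell, shares close to the 18.6% and 21.2% of all genes, with a median log2 fold change of -0.12. The initiator Casp9, which APAF1 activates, fell by 0.90 (SE 0.12), the executioner Casp6 fell by 0.57 (SE 0.12), and Casp12 fell by 1.08 (SE 0.09) on the log2 scale. Cycs, which encodes cytochrome c, rose by 0.35 (SE 0.09), Birc5 by 0.36 (SE 0.08) and Htra2 by 0.33 (SE 0.11). In livers 0 of the 13 passed by edgeR, DESeq2, limma-voom or at an unadjusted p under 0.05, and their fold changes lay between -0.34 and 0.17. Casp9 was 25.7 ± 1.97 and 25.8 ± 3.65 CPM in control and senescent livers (SD, n = 4).

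In the death receptor pathway 2 of 9 tested genes rose in iMEFs and 2 fell, again close to the shares of all genes (18.6% and 21.2%). Cflar, which encodes the caspase inhibitor FLIP, rose by 0.73 (SE 0.08) and the TRAIL receptor gene Tnfrsf10b by 0.38 (SE 0.11). Tnfrsf10b is also counted above with the other p53 targets linked to cell death. The TNF receptor Tnfrsf1a and its adaptor Tradd fell by 0.60 (SE 0.11) and 0.48 (SE 0.13). In livers 0 of 10 passed by edgeR (3 at an unadjusted p under 0.05), and 1 passed by DESeq2 and by limma-voom. Tnfrsf10b had 1.64 ± 1.05 CPM in control livers and 6.35 ± 1.46 CPM in senescent ones (SD, n = 4), a log2 fold change of 1.96 (SE 0.37) with an adjusted p of 0.056 by edgeR. Its change was larger in livers than in iMEFs (difference -1.59, SE 0.36, adjusted p = 0.0054).

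**Figure D4:**
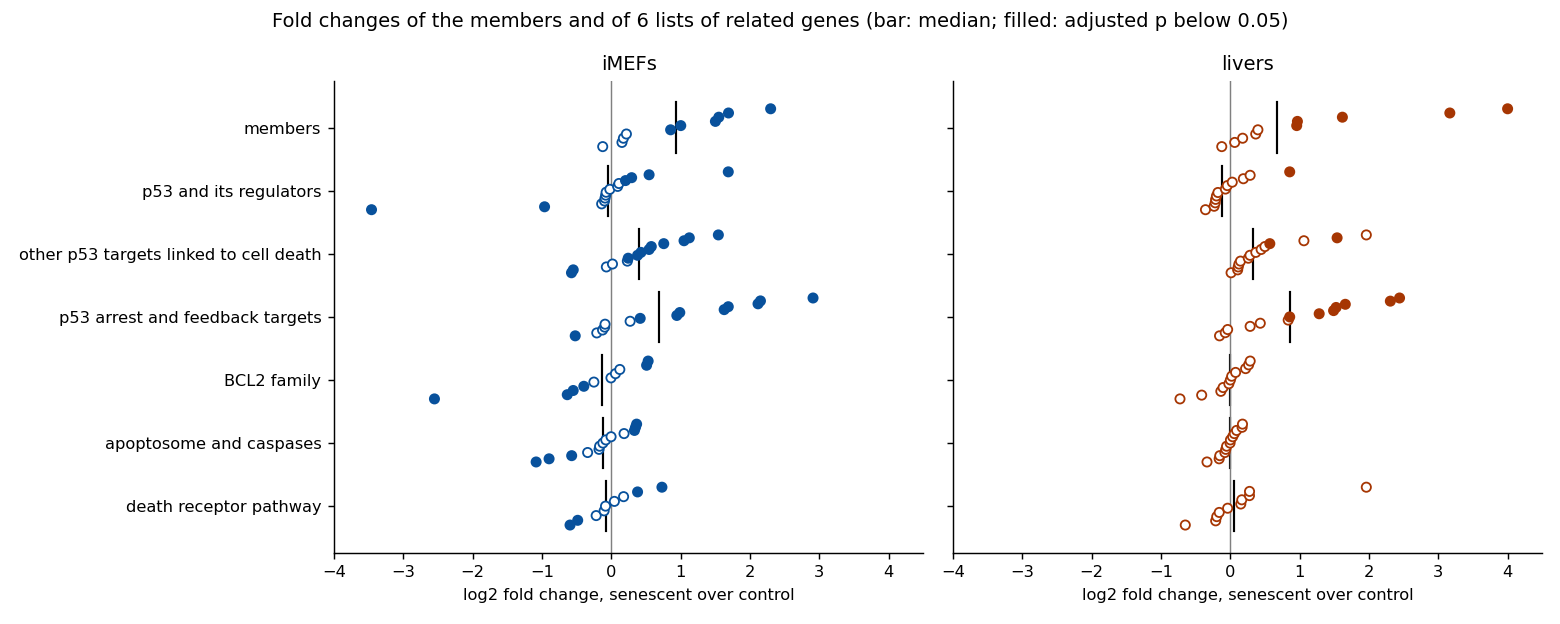
Log2 fold change of senescent over control for the tested members and for the tested genes of 6 related lists, in iMEFs (left) and livers (right); the bar is the list's median and filled points have an adjusted p below 0.05. In livers the filled points lie in 4 of the lists, the members included, and all of them are above 0.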

How the data were processed

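RNA-seq counts were analysed for 14 libraries. Per the submitters' processing notes, the authors aligned reads to mm10 with STAR and counted them with featureCounts, and they deposited raw counts of reads per gene, 1 table per tissue. The sources used here give no tool versions, strand setting or annotation release. Normalized tables, which the authors also deposited after scaling with DESeq2 size factors, were not used.

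Each tissue was fitted on all its genes with edgeR 4.0.16 in R 4.3.3 (filterByExpr, TMM factors, quasi-likelihood test, Benjamini-Hochberg threshold 0.05). The difference between tissues was the interaction in 1 fit of all 14 libraries. Intervals are 95%, p-values reflect the spread between these libraries, and counts give 15364450 reads or more per library. Exon lengths and positions came from GENCODE M21. Fits were tested on simulated data. The members and lists were chosen with earlier results of these data known. Some list genes were left out and are not reported here. Named genes were the members, Terf2, up to 4 genes of smallest p per list and tissue, and list genes that fell (45 genes in all). The 5 genes closest to the members' mean were named as well, but were chosen by their values and only described. In the text, examples from this set and other genes of the same lists (such as Bcl2, Trp53 and Cycs) were chosen after their values were seen. Alternatives were DESeq2 1.42.0, limma-voom 3.58.1, RLE factors, no filter, a threshold of 0.01, the replicate number as a block, and leaving out each library. Figures were drawn with matplotlib 3.10.9.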

Additional observations from a re-analysis of the deposited data

Results flagged for a closer look

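In 2 of 88 groups of 4 livers looked at, 1 library lay far from the other 3, where chance gives about 1 in 20. This was control liver replicate 3 both times, for Eda2r (0.730 CPM) and for Zmat3 (6.20 CPM). Without control liver replicate 3 the log2 fold change of Eda2r in livers was 2.97 (adjusted p = 0.0011).

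By the interaction test of edgeR, the change differed between iMEFs and livers for 20 of 45 genes (the members, Terf2 and the genes named by rule from the lists). Trp63, Cdkn2a and Bik among them were not tested in both tissues. Of all 11693 genes tested in both, 17.1% differed. Genes of the lists were named for a small p within a tissue or for falling, so the count and this share are not alike. Values are the log2 fold change in iMEFs minus that in livers. Among the members they were -3.14 for Phlda3, 1.62 for Perp, 1.62 for Pidd1, 1.38 for Pmaip1, -0.81 for Apaf1, -0.78 for Bax and -0.61 for Aen. For Terf2 the value was -5.50, in cultured cells against whole livers with untargeted cells.

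Among p53 regulators and other targets the values were 0.83 for Mdm2, 0.39 for Usp7, a ubiquitin protease that acts on MDM2 and p53, 0.42 for Ei24, 0.63 for Ccng1, -1.33 for Gtse1 and -1.78 for Plk2. Among death genes outside the members they were -2.13 for Bmf, -0.85 for Bak1, -0.89 for Casp9, -1.59 for Tnfrsf10b, 0.94 for Cflar and -0.87 for Tnfrsf1a.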

How the results depend on the processing

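The number of members called in iMEFs was 6 in each alternative. In livers it was 5 by DESeq2, limma-voom, RLE factors and no filter, 4 at a threshold of 0.01 and with the replicate block, and 4 to 5 on leaving out 1 library. For the difference between tissues it was 7, with 8 by DESeq2, 6 at 0.01, 7 with the replicate block and 6 to 8 on leaving out 1 library. Deviations from the group means correlated at -0.17 to 0.24 between same-numbered libraries. With 3 or 4 libraries per group this cannot settle whether the numbers pair them. In livers 1 of the 4 replicates matched its own number best.

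All genes called in iMEFs numbered 5400, and 3385 at 0.01. In livers they numbered 49, but 139 by DESeq2, 130 with no filter and 30 at 0.01. For the difference they numbered 2000, 899 at 0.01 and 1278 to 2161 on leaving out 1 library, lowest without control iMEF replicate 2. List genes called in livers fell to 5 at 0.01 and to 5 to 8 on leaving out 1 library, 5 without control liver replicate 1. Promoter half-sites were found in 2 members and in 5 with 1 mismatch.

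Of 430 values for single members, 412 kept direction and call, 11 lost a call, 3 gained one and 4 changed sign, none of them called. The sign changes were Fas in iMEFs (-0.39 to 0.029, the latter without senescent replicate 2), Pidd1 in livers (-0.088 to 0.18, the former without senescent replicate 4) and the tissue difference of Bbc3 (-0.56 to 0.033, with 0.033 and 0.013 without control iMEF replicate 1 or control liver replicate 2). The causes were not tested. Pmaip1 in livers rested on 55 and 57 reads per group.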
